A study of Rattus norvegicus with 21 samples.

Results

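Cholesterol synthesis was followed in rat left ventricles (LV) through 7 genes: Hmgcs1, Idi1, Fdft1, Sqle, Lss, Insig1 and Srebf2. They were chosen by name, with earlier results of these data known. All 7 are among the 26597 genes of the deposited tables. The tissue came from F-344/Brown Norway rats given relaxin (RLX, 400 µg/kg/day) or its vehicle, sodium acetate, for 14 days by subcutaneous mini pump. Each sex had 24-month rats with RLX, 24-month controls and 9-month controls, with 4 females or 3 males in each group, and the controls of both ages received the vehicle. Ribosomal sequences were removed from total RNA before sequencing. The RNA was extracted from left ventricle tissue, so the libraries hold RNA of all cell types of the ventricle. In such libraries fewer cells of a type and less RNA per cell cannot be told apart.

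Cells build cholesterol from acetyl-CoA through the mevalonate pathway, which also feeds the synthesis of ubiquinone and of the lipid anchors of small GTPases. When membranes of the endoplasmic reticulum run low in sterol, the transcription factor SREBP2, the product of Srebf2, travels to the Golgi, is cut and released, and switches on the genes of the pathway. When sterol is plentiful, the INSIG proteins hold SREBP2 back with its escort SCAP. Insig1 is itself a target of SREBP2. Of the enzymes, the product of Hmgcs1 makes the precursor HMG-CoA, that of Idi1 interconverts the isoprene building blocks, Fdft1 encodes squalene synthase, and Sqle and Lss encode the enzymes that oxidize squalene and fold it into lanosterol. None of the 7 genes encodes a receptor that takes up LDL.

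By the authors' coordinates (build not given in the sources used here), Hmgcs1 (ENSRNOG00000016552) lies at chr2:70800442-70809191 and Idi1 (ENSRNOG00000016690) at chr17:59783326-59789305. Fdft1 (ENSRNOG00000021314) lies at chr15:50104043-50132096, Sqle (ENSRNOG00000009550) at chr7:100196963-100211948 and Lss (ENSRNOG00000001267) at chr20:15000296-15027560. The regulators Insig1 (ENSRNOG00000006859) and Srebf2 (ENSRNOG00000007400) lie at chr4:337380-345601 and chr7:123364495-123422294.

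Total counts ran from 11997512 to 19027947 per library, with a median of 14936627. Markers of ventricular muscle were detected in every library, and the 5 cardiomyocyte markers summed to between 18448 and 30799 CPM (read counts scaled to library size). Hemoglobin and the other erythroid markers summed to 11176 CPM in RLX female rat 4 and 1400 CPM in aged control female rat 6, and to at most 321 CPM in any other library. Sex and loading concentration go together in these data, and the sequencing runs are not named in the sources used here. Levels in females and males are therefore given side by side without a test.

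Levels of the 7 genes were compared with each other by the authors' RPKM, which divides by gene length. Insig1 was the most abundant transcript, at 27.7 ± 8.85 RPKM (SD, n = 21 libraries). It was followed by Fdft1 at 12.2 ± 1.52 RPKM and Hmgcs1 at 6.48 ± 2.11 RPKM. The order Insig1, Fdft1, Hmgcs1 held in all 21 libraries. Idi1 averaged 3.76 ± 1.49 RPKM and Srebf2 3.41 ± 0.830 RPKM, and Idi1 was the higher of the pair in 13 of 21 libraries, so their order is not settled. Sqle averaged 1.33 ± 0.543 RPKM and Lss only 0.581 ± 0.152 RPKM, with Sqle above Lss in 20 of 21 libraries. The counts behind these levels were 549 to 2032 for Insig1 and 408 to 1021 for Fdft1, but 20 to 88 for Sqle, 22 to 69 for Lss and 36 to 142 for Idi1.

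**Figure D1:**
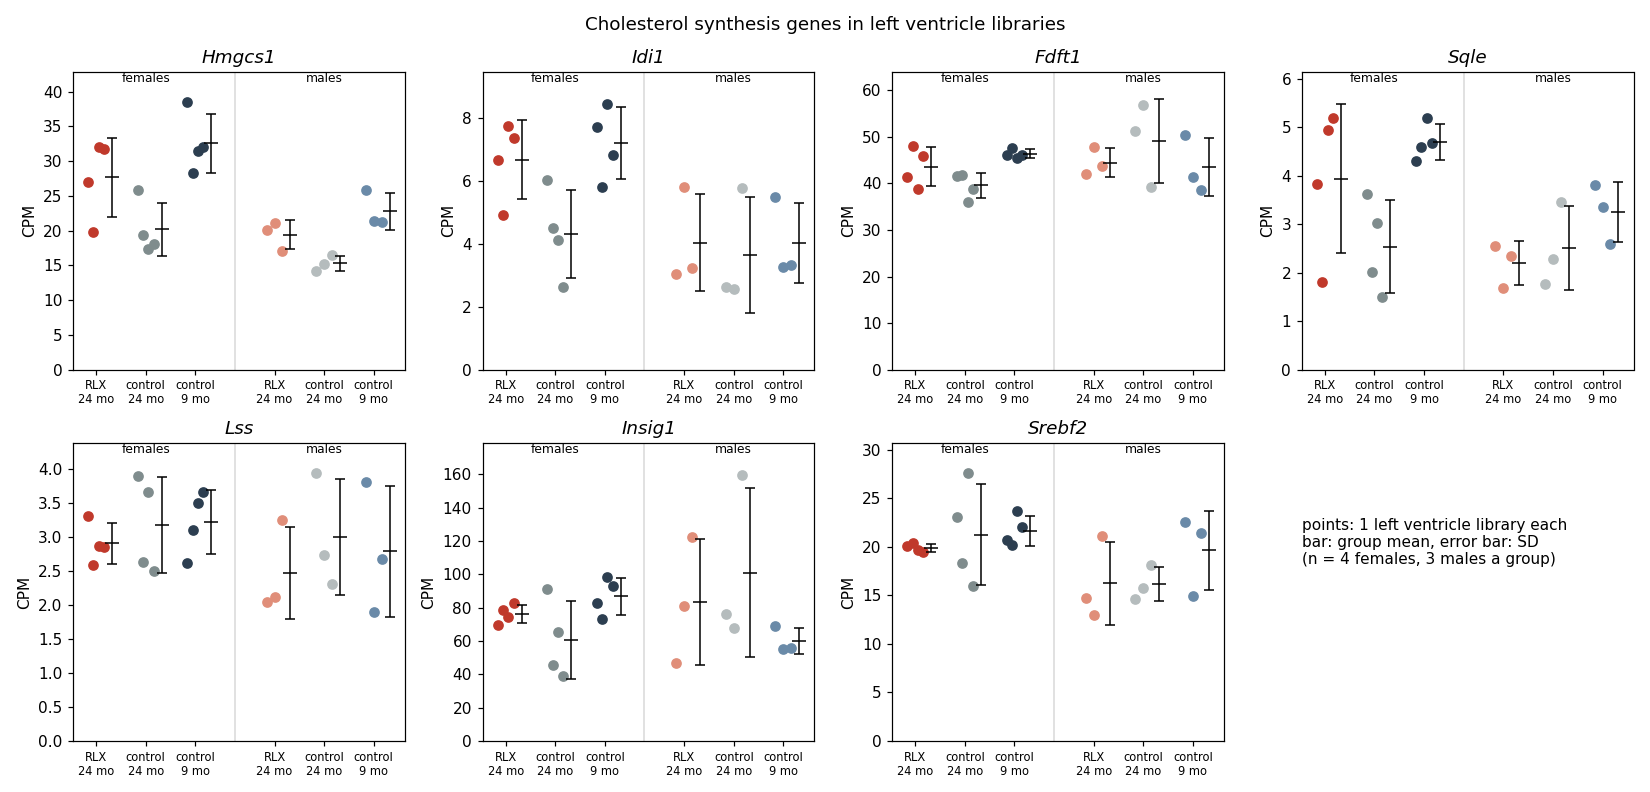
CPM (linear axis, from 0) of each gene in each library, by group, with the group mean and SD beside the points (n = 4 females or 3 males). In females Hmgcs1 lay between 17.4 and 25.8 CPM in aged controls, below all 4 libraries of 9-month controls at 28.3 to 38.4 CPM.

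The first question was how aging changes the pathway in females. Of the 7 genes, 1 fell with age by the test across all genes, and none rose. Among the 12696 genes tested, 5.35% passed, 1.88% lower and 3.47% higher. The gene that fell was Hmgcs1, at the entry of the pathway. It was at 25.8, 19.4, 17.4 and 18.1 CPM in aged control rats 2, 4, 5 and 6, against 38.4, 28.3, 31.5 and 32.1 CPM in 9-month rats 1, 3, 4 and 5. The groups did not overlap, and aged rat 2 lay closest to the 9-month level. This was a log2 fold change of -0.68 (SE 0.138), or a level 0.625 times that at 9 months (edgeR quasi-likelihood test with Benjamini-Hochberg adjustment, adjusted p = 0.0223). The direction held in every alternative tried, but the call was lost when aged rat 6 (adjusted p = 0.0634), 9-month rat 1 (0.0748) or 9-month rat 4 (0.0696) was left out. Over all alternatives the adjusted p ran from 0.000782 to 0.527. The top value came from the fit that took rat numbers as a replicate block, although the 2 groups share only 2 rat numbers.

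None of the other 4 enzymes of the set passed the test in the edgeR fit. Sqle, a control point late in the pathway, was at 3.62, 2.01, 3.01 and 1.502 CPM in aged control rats 2, 4, 5 and 6, against 4.30, 4.59, 5.19 and 4.67 CPM in the 9-month rats. Again the groups did not overlap, with aged rat 6 the lowest. The log2 fold change of -0.87 (SE 0.237) had an adjusted p of 0.0550 in edgeR. It passed in DESeq2 (0.0142), edgeR's exact test (0.0136) and voom with quality weights (0.0485). It also passed without the filter on low counts (0.0433) and without aged rat 2 (0.0373). Over all alternatives the adjusted p of Sqle ranged from 0.0136 to 0.772, the top value with the replicate block. Idi1 was at 6.03, 4.50, 4.14 and 2.63 CPM in aged control rats 2, 4, 5 and 6, against 7.73, 5.83, 8.44 and 6.85 CPM in the 9-month rats. Only aged rat 2 reached into the range of the 9-month group. Its log2 fold change was -0.73 (SE 0.220, edgeR adjusted p = 0.0770). Idi1 passed in DESeq2 (0.0299), in edgeR's exact test (0.0384) and without aged rat 2 (0.0422).

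Fdft1, whose enzyme commits the pathway to sterols, differed little and had little spread. It was at 41.6, 41.9, 36.1 and 38.9 CPM in aged control rats 2, 4, 5 and 6, against 46.2, 47.7, 45.5 and 46.1 CPM in the 9-month rats. The groups were separate, since the 9-month libraries spanned only 45.5 to 47.7 CPM. Its log2 fold change was -0.21 (SE 0.0824, edgeR adjusted p = 0.1596). Lss, the cyclase, averaged 3.17 ± 0.706 CPM in aged controls and 3.22 ± 0.467 CPM in 9-month controls (SD, n = 4 each), with a log2 fold change of -0.0063 and a 95% interval from -0.44 to 0.43. The sign of Lss changed in 6 of 17 alternatives.

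Neither regulator passed the test. Insig1 was at 91.4, 45.8, 65.7 and 39.2 CPM in aged control rats 2, 4, 5 and 6, against 82.7, 73.0, 98.1 and 93.1 CPM in the 9-month rats. Aged rat 2 was as high as the younger rats while rats 4 and 6 were the lowest of all female libraries. For Insig1 the log2 fold change was -0.51 (SE 0.242, edgeR adjusted p = 0.271). Without aged rat 2 it was -0.77 and passed (adjusted p = 0.0407). Srebf2 averaged 21.2 ± 5.17 CPM in aged controls and 21.6 ± 1.57 CPM in 9-month controls (SD, n = 4 each), and its log2 fold change of -0.01 had a 95% interval from -0.34 to 0.31. The transcript of the factor thus stood at a like mean level in both groups, with a wider spread in the aged rats. As counts over the set, the unadjusted p was under 0.05 and the level lower for 4 of 7 genes, against 9.64% of all genes, and 3 of 7 were lower without overlap, against 7.10% (no gene was higher without overlap, against 7.03%). The median log2 fold change of the 7 was -0.51, beside -0.00052 over all genes tested. Since the 7 were chosen with earlier results of these data known, these counts and medians describe the set and are not a test of it.

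Markers of other cell types differed between the same libraries. All 4 macrophage markers tested rose in aged females, and their summed level was 267 to 324 CPM in aged controls, against 164 to 209 CPM at 9 months. Of 6 fibroblast markers 2 rose, with sums of 3416 to 4032 CPM in the aged and 1956 to 2746 CPM in the younger controls. Of 4 T cell markers 2 rose, with sums of 20.6 to 29.8 CPM in the aged and 11.7 to 14.0 CPM in the younger controls. Of 5 cardiomyocyte markers 1 fell, with sums of 18448 to 23246 CPM in the aged and 24576 to 30799 CPM in the younger controls. Erythroid markers summed to 7.31 to 1400 CPM in the aged and 2.12 to 5.04 CPM in the younger controls. The part of these cell types in the lower Hmgcs1 level was not tested.

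**Figure D2:**
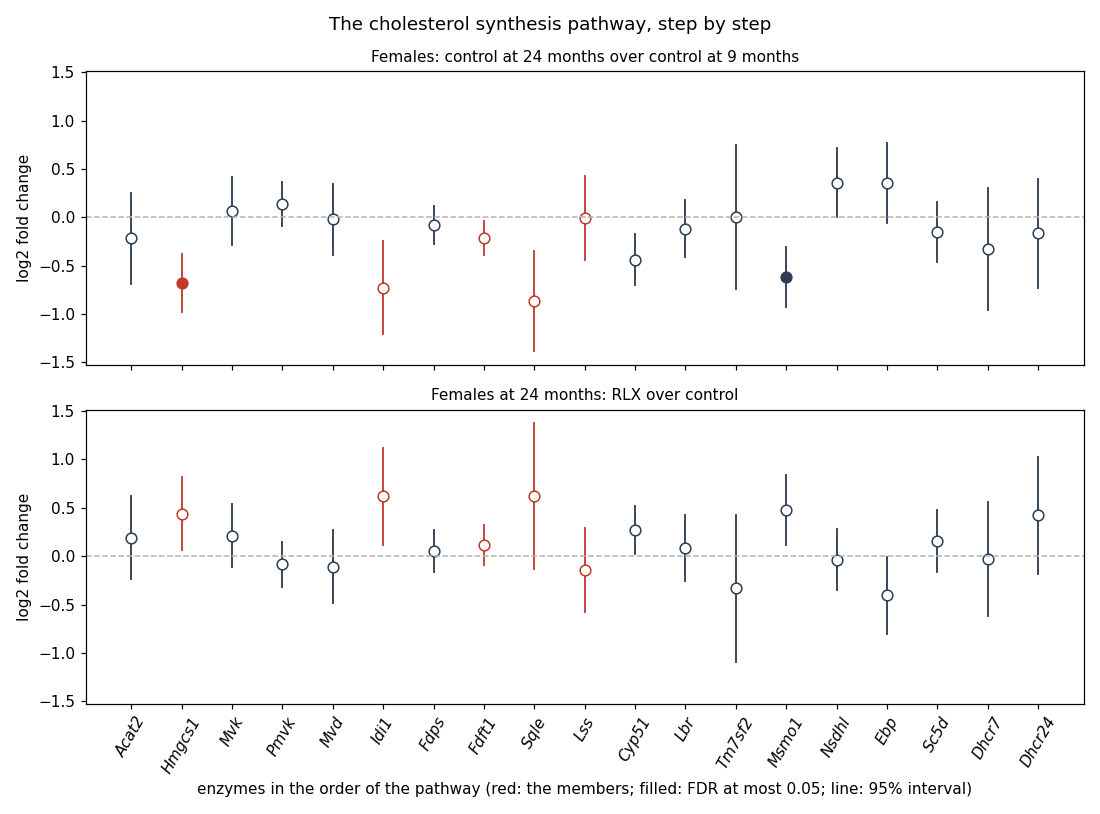
Fitted log2 fold changes in females along the order of the pathway, with 95% intervals, for aging (upper panel) and RLX (lower panel). Filled points passed the adjusted test: Hmgcs1 and Msmo1 in aging, at log2 fold changes of -0.68 and -0.62, and none with RLX.

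The rest of the pathway was described by a list of 15 further enzymes, 14 of which could be tested. In female aging 1 fell and none rose, with a median log2 fold change of -0.10. The enzyme that fell was Msmo1, which removes methyl groups from the sterol ring. It was at 9.65, 9.13, 8.29 and 6.57 CPM in aged control rats 2, 4, 5 and 6, against 13.9, 10.7, 12.9 and 14.5 CPM in the 9-month rats. Every aged library was below every younger one. Its log2 fold change was -0.62 (SE 0.143, edgeR adjusted p = 0.0328). The call was lost in 5 of the 8 fits that left out 1 library (adjusted p up to 0.104). Those libraries were aged control rats 5 and 6 and 9-month rats 1, 4 and 5. Over all alternatives the adjusted p of Msmo1 ran from 0.00479 to 0.792, the top value with the replicate block. Cyp51, which acts on lanosterol upstream of it, was at 33.9, 25.2, 30.8 and 24.0 CPM in the aged controls, against 44.3, 34.0, 38.7 and 38.9 CPM at 9 months. The lowest 9-month library and the highest aged one were nearly level. Its log2 fold change was -0.44 (SE 0.122, edgeR adjusted p = 0.0578). Other steps stood on the other side: Nsdhl, the sterol dehydrogenase, averaged 7.41 ± 1.07 CPM in aged controls and 5.85 ± 0.963 CPM in 9-month controls (SD, n = 4 each, log2 fold change 0.36, edgeR adjusted p = 0.235).

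Neighboring lists held few calls. Among 11 genes of sterol sensing and SREBP processing, 1 rose and none fell with age in females. This was Npc2, which carries cholesterol out of the lysosome, at 123 ± 10.2 CPM in aged controls and 84.5 ± 10.4 CPM in 9-month controls (SD, n = 4 each, log2 fold change 0.55, SE 0.104, edgeR adjusted p = 0.0169). The call was lost without 9-month rat 1 or 9-month rat 4 (adjusted p up to 0.0680). Over all alternatives the adjusted p of Npc2 ran from 0.000241 to 0.767, the top value with the replicate block. Srebf1, the gene of the related factor SREBP1, averaged 6.85 ± 1.23 CPM in aged controls and 9.77 ± 3.48 CPM in 9-month controls (edgeR adjusted p = 0.243). Among 11 measured genes of fatty acid synthesis, 1 fell: Acss2, which makes acetyl-CoA from acetate, at 29.6 ± 1.96 CPM in aged controls and 39.1 ± 1.72 CPM in 9-month controls (log2 fold change -0.39, SE 0.0866, edgeR adjusted p = 0.0285). This call was lost in 5 of 8 fits that left out 1 library, namely aged control rats 2, 5 and 6 and 9-month rats 1 and 4 (adjusted p up to 0.0989). Over all alternatives the adjusted p of Acss2 ran from 0.00235 to 0.932, the top value with the replicate block. None of 8 genes of other mevalonate branches passed, the closest being Pdss2, of ubiquinone synthesis, at 15.3 ± 0.594 CPM in aged controls and 19.9 ± 1.73 CPM in 9-month controls (edgeR adjusted p = 0.0532). No gene passed among 9 of sterol efflux and storage, 3 of sterol oxidation or 7 of lipoprotein uptake. Of the uptake genes 2 had a positive and 5 a negative log2 fold change. The largest was that of Lrp1, 0.81 (SE 0.264, edgeR adjusted p = 0.121). Lrp1 averaged 149 ± 62.8 CPM in aged controls, with 238 CPM in rat 6, and 86.0 ± 8.97 CPM in 9-month controls.

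The second question was what RLX does to these genes in aged females. None of the 7 genes passed, and neither did any of the 12591 genes tested (0%, edgeR quasi-likelihood test). DESeq2, edgeR's exact test and voom also passed none of the 7. At an unadjusted p under 0.05 there were 2 of 7 higher with RLX, against 6.27% of all genes, and none lower, against 7.81%. None was without overlap in either direction, against 4.30% of all genes higher and 3.70% lower. DESeq2 gave no adjusted p for 2 of the 7, Sqle and Lss. The aged controls of this comparison are the same libraries as in the aging comparison, so the values are set side by side and the directions are not independent.

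Hmgcs1 was at 27.0, 19.9, 32.1 and 31.7 CPM in RLX rats 1, 2, 4 and 6, against 25.8, 19.4, 17.4 and 18.1 CPM in aged control rats 2, 4, 5 and 6. RLX rats 1, 4 and 6 exceeded every control, and RLX rat 2 lay among the controls. In the fit the log2 fold change was 0.44 (SE 0.170, 95% interval 0.07 to 0.81, edgeR adjusted p = 0.285). With 1 library left out it ran from 0.36 (without RLX rat 4) to 0.59 (without aged control rat 2). RLX rat 4, the highest for this gene, is also the library with erythroid markers at 11176 CPM, whose part was not tested. Idi1 was at 6.68, 4.93, 7.74 and 7.38 CPM in RLX rats 1, 2, 4 and 6, against 6.03, 4.50, 4.14 and 2.63 CPM in the controls. RLX rat 2 was again the lowest of its group. The log2 fold change of Idi1 was 0.62 (SE 0.231, 95% interval 0.12 to 1.12, edgeR adjusted p = 0.267).

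Sqle was at 3.83, 1.80, 4.94 and 5.19 CPM in RLX rats 1, 2, 4 and 6, against 3.62, 2.01, 3.01 and 1.502 CPM in the controls. The log2 fold change of Sqle was 0.62 (SE 0.343, edgeR adjusted p = 0.443). RLX rat 2 had 23 reads of this gene. Without that rat the log2 fold change was 0.86, and without aged control rat 6 it was 0.44. Insig1 averaged 76.3 ± 5.59 CPM with RLX and 60.5 ± 23.5 CPM in aged controls (SD, n = 4 each), so that the treated libraries lay inside the range of the controls. Its log2 fold change was 0.32 with a 95% interval from -0.23 to 0.86, and it was 0.16 without aged control rat 6 and 0.60 without aged control rat 2. Srebf2 behaved alike in spread, at 19.9 ± 0.407 CPM with RLX and 21.2 ± 5.17 CPM in aged controls. Its interval ran from -0.43 to 0.21, that of Lss from -0.57 to 0.29 and that of Fdft1 from -0.09 to 0.32.

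Of the 14 further enzymes tested, 2 were higher and 1 was lower with RLX at an unadjusted p under 0.05, and none passed. Msmo1 was at 10.6, 9.62, 14.7 and 12.4 CPM in RLX rats 1, 2, 4 and 6, against 9.65, 9.13, 8.29 and 6.57 CPM in the controls (log2 fold change 0.48, SE 0.165, edgeR adjusted p = 0.237). Cyp51 averaged 34.8 ± 1.11 CPM with RLX and 28.5 ± 4.67 CPM in aged controls (log2 fold change 0.27, SE 0.113, edgeR adjusted p = 0.313). The lower one was Ebp, a sterol isomerase, at 3.90 ± 0.454 CPM with RLX and 5.12 ± 0.975 CPM in aged controls (edgeR adjusted p = 0.353). Among the 7 genes of lipoprotein uptake, Lrp1 averaged 91.3 ± 14.9 CPM with RLX and 149 ± 62.8 CPM in aged controls (log2 fold change -0.72, edgeR adjusted p = 0.312). Of these 7 genes 2 had a positive and 5 a negative log2 fold change. No marker of another cell type passed in this comparison, but several differed at an unadjusted p under 0.05. Fibroblast markers (5 of 6 lower at that p) summed to 2228 to 2698 CPM with RLX and 3416 to 4032 CPM in aged controls. Macrophage markers (3 of 4 lower) summed to 172 to 297 CPM with RLX and 267 to 324 CPM in aged controls, and T cell markers (1 of 4 lower) to 7.61 to 24.8 CPM with RLX and 20.6 to 29.8 CPM in aged controls. Cardiomyocyte markers (3 of 5 higher) summed to 22696 to 27760 CPM with RLX and 18448 to 23246 CPM in aged controls. Erythroid markers summed to 5.01 to 11176 CPM with RLX and 7.31 to 1400 CPM in aged controls. Their part in the RLX values was not tested.

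RLX-treated aged females were then set against 9-month controls. All 7 log2 fold changes were negative, from -0.24 for Sqle to -0.09 for Fdft1, and none reached an unadjusted p under 0.05, against 5.87% of all genes lower and 5.54% higher. No gene of the 7 was without overlap (6.63% of all genes, 3.74% lower and 2.89% higher). Only 0.00796% of the 12570 genes tested passed in this comparison, and DESeq2, edgeR's exact test and voom passed none of the 7. Hmgcs1 averaged 27.7 ± 5.69 CPM with RLX and 32.6 ± 4.26 CPM at 9 months (SD, n = 4 each), a log2 fold change of -0.23 with a 95% interval from -0.56 to 0.09. For Sqle the interval ran from -0.79 to 0.31. With 1 library left out, the log2 fold change of Hmgcs1 ran from -0.31 (without RLX rat 4) to -0.11 (without RLX rat 2). That of Sqle ran from -0.39 (without RLX rat 6) to -0.01 (without RLX rat 2). For Idi1 the range was -0.19 (without 9-month rat 3) to 0.01 (without RLX rat 2). Macrophage markers summed to 172 to 297 CPM with RLX and 164 to 209 CPM at 9 months, with 2 of 4 higher at an unadjusted p under 0.05, and erythroid markers to 5.01 to 11176 CPM with RLX and 2.12 to 5.04 CPM at 9 months. Their part in these values was not tested.

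**Figure D3:**
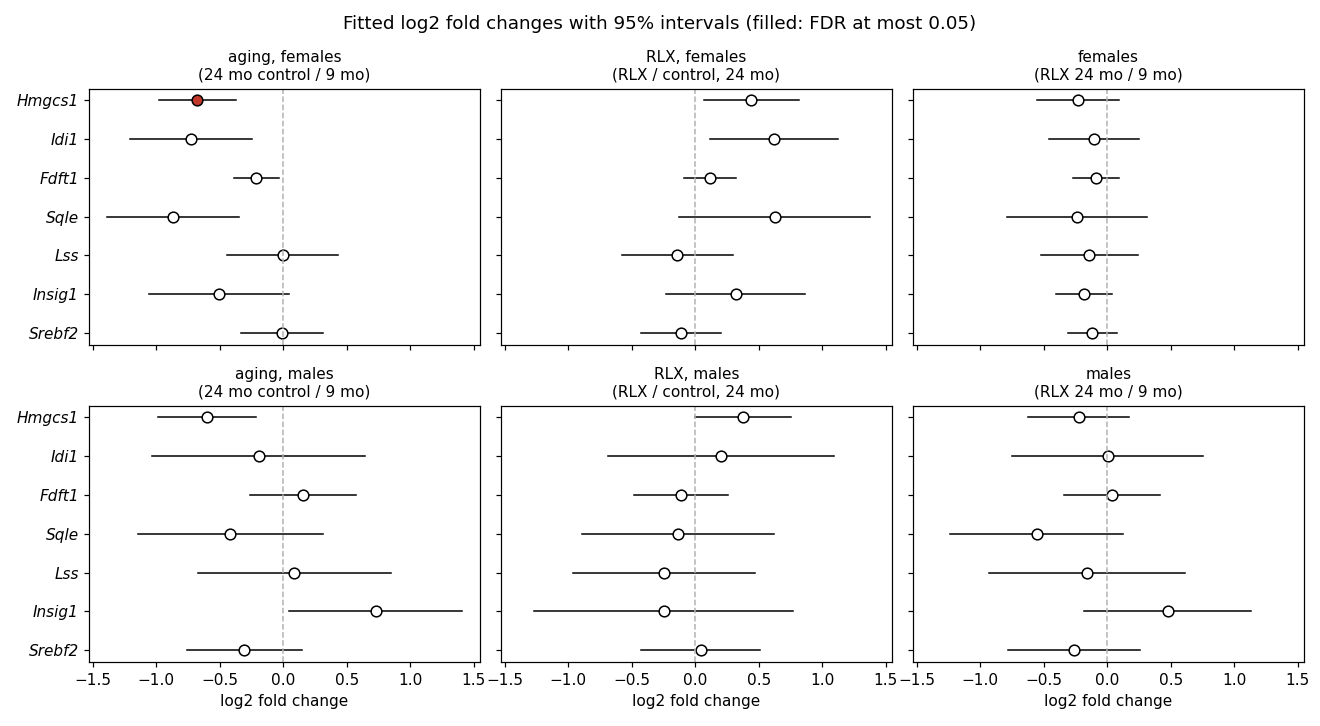
Fitted log2 fold changes with 95% intervals for the 7 genes in the 6 comparisons, females in the upper row and males in the lower row. Hmgcs1 in female aging, at -0.68, is the only filled point, the sign of an FDR of at most 0.05.

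In males the same questions had 3 rats in each group, where an exact permutation test of a single gene cannot go below p = 0.1. With age none of the 7 genes passed, nor did any of the 12220 genes tested (0%, edgeR quasi-likelihood test), and DESeq2, edgeR's exact test and voom passed none of the 7. At an unadjusted p under 0.05, 1 of 7 was lower and 1 of 7 higher, against 5.73% and 2.82% of all genes. The lower one was Hmgcs1, at 14.3, 15.2 and 16.5 CPM in aged control rats 8, 11 and 12, against 25.8, 21.3 and 21.2 CPM in 9-month rats 2, 3 and 4. The groups did not overlap, which 6.78% of all genes showed in this direction and 7.49% in the other. The log2 fold change was -0.60 (SE 0.174, edgeR adjusted p = 0.413).

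The higher one was Insig1, at 75.9, 67.9 and 159 CPM in aged control rats 8, 11 and 12, against 69.1, 55.2 and 55.9 CPM in the 9-month rats. Rat 12 held the highest CPM of all 21 libraries, while by RPKM it stood at 45.3, below RLX male rat 7 at 47.8. The log2 fold change of 0.73 (SE 0.305, edgeR adjusted p = 0.556) was 0.24 without aged control rat 12. The remaining members had wide intervals, from -1.14 to 0.31 for Sqle, -1.03 to 0.64 for Idi1, -0.76 to 0.15 for Srebf2, -0.67 to 0.85 for Lss and -0.27 to 0.57 for Fdft1. None of the 14 further enzymes tested passed. Dhcr7, which makes the last reduction to cholesterol, was the only one with an unadjusted p under 0.05, at 0.889 ± 0.558 CPM in aged controls and 2.23 ± 1.04 CPM in 9-month controls (SD, n = 3 each). It had only 15, 25 and 3 reads in aged control rats 8, 11 and 12, against 14, 26 and 44 in 9-month rats 2, 3 and 4. Its CPM overlapped between the groups. Fibroblast markers (4 of 6 lower at an unadjusted p under 0.05) summed to 2612 to 3208 CPM in aged males and 2690 to 5219 CPM at 9 months. Erythroid markers (3 of 3 tested lower) summed to 5.06 to 16.8 CPM in aged males and 53.5 to 123 CPM at 9 months. At that p 2 of 4 T cell, 2 of 5 endothelial, 1 of 4 macrophage and 1 of 4 mural markers were also lower. No marker of these cell types was higher at that p. Their part in these values was not tested.

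With RLX in aged males none of the 7 genes passed, in a comparison where 0% of 12232 genes did (edgeR quasi-likelihood test). None had an unadjusted p under 0.05, against 7.55% of all genes lower and 4.41% higher. DESeq2, edgeR's exact test and voom passed none, though DESeq2 gave no adjusted p for 5 of the 7. Hmgcs1 was at 20.2, 21.1 and 17.1 CPM in RLX rats 2, 3 and 7, against 14.3, 15.2 and 16.5 CPM in aged control rats 8, 11 and 12. The treated libraries were all above the controls, as for 7.38% of all genes (12.5% were lower without overlap). Cardiomyocyte markers summed to 18777 to 21847 CPM with RLX and 24626 to 25634 CPM in aged controls, with 3 of 5 lower and 1 of 5 higher at an unadjusted p under 0.05. The 2 ventricle markers summed to 7897 to 8176 CPM with RLX and 9982 to 11546 CPM in aged controls. Macrophage markers summed to 256 to 351 CPM with RLX and 241 to 255 CPM in aged controls. Endothelial markers summed to 324 to 366 CPM with RLX and 224 to 322 CPM in aged controls. Adipocyte markers summed to 11.2 to 19.3 CPM with RLX and 20.4 to 32.8 CPM in aged controls. None of these sums overlapped between the groups, and their part in the Hmgcs1 values was not tested. The log2 fold change of Hmgcs1 was 0.38 (SE 0.168, 95% interval -0.0010 to 0.75). The 3 male groups did not overlap for this gene, with aged controls lowest, RLX between and 9-month rats highest. The highest RLX library (21.1 CPM) and the lowest 9-month library (21.2 CPM) were nearly level. How many of all genes showed such an order was not counted. The aged controls of the aging and RLX comparisons are the same libraries, so the 2 directions are not independent. Insig1 was at 46.7, 80.7 and 122 CPM with RLX, and at 75.9, 67.9 and 159 CPM in aged controls, a spread wider than any difference of means. Sqle, Idi1, Srebf2, Lss and Fdft1 all overlapped between the groups. Of 13 further enzymes tested, 2 were lower with RLX at an unadjusted p under 0.05 and none passed. The smallest p was that of Mvk, which phosphorylates mevalonate, at 3.09 ± 0.836 CPM with RLX and 5.30 ± 0.821 CPM in aged controls (SD, n = 3 each, edgeR adjusted p = 0.349).

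Against 9-month males, RLX-treated aged males passed for none of the 7 genes (0% of 12285 genes by edgeR, with none of the 7 at an unadjusted p under 0.05, against 8.97% of genes lower and 7.07% higher, and none passing in DESeq2, edgeR's exact test or voom). Hmgcs1 averaged 19.4 ± 2.10 CPM with RLX and 22.8 ± 2.63 CPM at 9 months (SD, n = 3 each), and Sqle 2.19 ± 0.451 CPM with RLX and 3.25 ± 0.614 CPM at 9 months. Both were lower without overlap, as were 11.2% of all genes, while 11.5% were higher. Mvk again had the smallest p of the further enzymes, at 3.09 ± 0.836 CPM with RLX and 6.49 ± 1.57 CPM at 9 months (edgeR adjusted p = 0.155). Fibroblast markers summed to 2431 to 3673 CPM with RLX and 2690 to 5219 CPM at 9 months, with 3 of 6 lower at an unadjusted p under 0.05, and their part in these values was not tested.

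Whether the sexes differ was tested as an interaction over all 21 libraries. For aging no member passed, while 4.30% of 13229 genes did. An unadjusted p under 0.05 was found for 2 of the 7, against 21.2% of all genes. For Hmgcs1 the female minus male difference of log2 fold changes was -0.10 (SE 0.232, 95% interval -0.58 to 0.38). Insig1 had the largest difference, -1.26 (SE 0.451, edgeR adjusted p = 0.115), which was -0.76 without aged control male rat 12 (adjusted p = 0.294). DESeq2 passed it (adjusted p = 0.0488, the lowest over all alternatives, which reached 0.294). Fdft1 followed at -0.39 (SE 0.169, edgeR adjusted p = 0.184). For RLX no member and 0% of all genes passed by edgeR. None of the 7 had an unadjusted p under 0.05 there, against 14.1% of all genes, and none passed with DESeq2, which gave no adjusted p for 3 of them.

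The last question was how the 7 genes vary together from rat to rat. Each gene's deviations from its group mean (log2 CPM) were correlated over the 21 libraries, for all 21 pairs of genes. The points share sequencing depth and scaling. By Pearson r over all libraries the highest pair was Hmgcs1 with Idi1, at r = 0.69 and rho = 0.68. A 2-sided permutation test within groups gave p = 0.00039 for r (0.00819 adjusted over the pairs) and p = 0.00229 for rho (0.0481 adjusted). The r of this pair was 0.63 without the 2 libraries farthest from the median of Hmgcs1, 0.77 in the 12 females and 0.76 in the 9 males. A further 5 pairs had r between 0.59 and 0.66 but did not pass the permutation test after adjustment (p = 0.106 each): Hmgcs1 with Sqle, Sqle with Idi1, Idi1 with Insig1, Insig1 with Srebf2, and Srebf2 with Lss. Of these, Insig1 with Srebf2 had the highest rho of all pairs, 0.76 (adjusted permutation p = 0.0590). Its r was 0.67 without the 2 libraries farthest from the median of Insig1. Hmgcs1 with Sqle had r = 0.40 without the 2 libraries farthest from the median of Hmgcs1, against 0.66 with them. The pairs of Fdft1 had r from -0.34 to 0.25 in all 6.

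**Figure D4:**
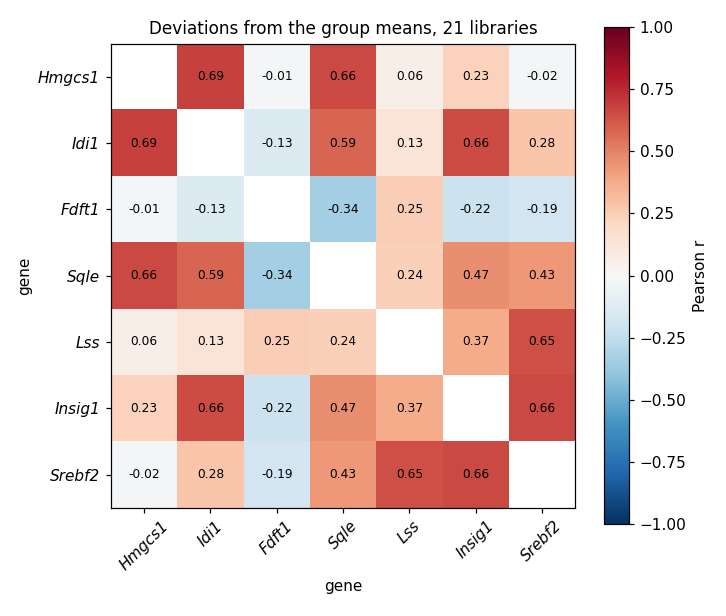
Pearson r between the 7 genes over 21 libraries, on deviations of log2 CPM from the group means (color scale from -1 to 1). Hmgcs1 and Idi1 have the highest Pearson r, 0.69, and no pair with Fdft1 exceeds 0.25.

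Genes outside the set were ranked by the same measure against the mean of the 7. The first 10 with a gene name were Fam134b, Cflar, Zc3h12c, Ncf1, Map2k1, Myom3, Fhl3, Il4i1, Tead3 and Hmgxb3, with r from 0.82 to 0.77 over 21 libraries. None of these is on a sterol list. Cyp51 was the closest pathway enzyme, at rank 22 of 13229 genes (r = 0.75). Against Hmgcs1 alone, a measure chosen after seeing the data, the first was Gpr22, an orphan receptor gene (r = 0.86), followed by Apold1 (r = 0.74) and Zfp36 (r = 0.73), and 0 of the 10 genes above were among the first 10. Idi1 stood at rank 12 there, and none of the genes above it is on a sterol list. Cyr61 and Btg2 ranked 9 and 10, and Nr4a1, Egr1 and Fos, also on no sterol list, ranked 14, 25 and 53. An r of at least 0.5 with Hmgcs1 was reached by 1.29% of all genes.

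The promoters of Hmgcs1, of Idi1, the gene that varied with it, and of Msmo1, the other enzyme that fell in aged females, are shown for their shared sequence. Windows of 300 bases, from 250 before to 50 after the start, were taken from RefSeq (GRCr8), where 5 of the 7 genes and 13 of the 15 further enzymes matched. Capitals mark CCAAT boxes, which read ATTGG when the box is on the other strand. The Hmgcs1 window is chr2:53382054-53382353 (plus strand), that of Idi1 chr17:66547475-66547774 (minus strand) and that of Msmo1 chr16:29746863-29747162 (plus strand).
Hmgcs1: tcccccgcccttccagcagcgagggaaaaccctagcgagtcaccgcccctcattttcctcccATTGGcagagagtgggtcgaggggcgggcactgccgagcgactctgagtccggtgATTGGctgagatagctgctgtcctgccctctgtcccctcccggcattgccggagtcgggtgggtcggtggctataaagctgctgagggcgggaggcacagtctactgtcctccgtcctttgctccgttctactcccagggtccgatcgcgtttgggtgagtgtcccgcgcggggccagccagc
Idi1: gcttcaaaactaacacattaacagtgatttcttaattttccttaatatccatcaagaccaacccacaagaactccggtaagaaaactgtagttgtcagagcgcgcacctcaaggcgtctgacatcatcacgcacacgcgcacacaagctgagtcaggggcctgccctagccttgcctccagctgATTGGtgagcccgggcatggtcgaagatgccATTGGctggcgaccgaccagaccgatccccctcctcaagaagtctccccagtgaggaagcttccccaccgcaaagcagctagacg
Msmo1: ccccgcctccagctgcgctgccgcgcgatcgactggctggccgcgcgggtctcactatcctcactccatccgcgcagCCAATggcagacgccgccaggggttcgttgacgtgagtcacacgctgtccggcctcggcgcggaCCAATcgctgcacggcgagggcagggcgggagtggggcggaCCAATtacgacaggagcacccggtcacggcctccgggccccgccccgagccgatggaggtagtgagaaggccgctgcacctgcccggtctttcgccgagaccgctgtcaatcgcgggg
At least 1 CCAAT box was found, on either strand, in 5 of the 5 windows of the set and 10 of 13 of the further enzymes, against 37.5% of 33469 rat promoter windows. The Hmgcs1 and Idi1 windows hold 2 each and that of Msmo1 holds 3. The GC box GGGCGG was in 4 of 5 and 12 of 13 windows, against 33.1% of all. The sterol regulatory element spelled TCACNCCAC was in none of the 5 or 13 windows, and in 1.12% of all, which says only that these exact letters are not in these windows. No matches to different motifs overlapped.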

How the data were processed

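Total RNA of 21 rat left ventricles was sequenced after removal of ribosomal sequences. Mapping and counting were done by the authors in Biomedical Genomics Workbench 3.0.1, against a rat genome (build: not given in the sources used here). Values called counts were deposited by the authors as total counts per gene, not normalized. The RPKM values deposited by the authors divide these by gene length and library size. The deposited TPM and CPM columns were not used. Counts of each pair of groups were tested in R 4.3.3 with edgeR 4.0.16 (filterByExpr, TMM, robust quasi-likelihood F test) and Benjamini-Hochberg adjustment over all genes tested, with an FDR of at most 0.05 as the call. CPM use TMM-scaled library sizes over the 21 libraries, and log2 CPM a prior count of 2. Alternatives used DESeq2 1.42.0, limma 3.58.1 (voom with quality weights for the libraries, called voom here), RLE factors, no filter, 1 fit per sex and a gene length trend. Others were a replicate block, the study's DEG thresholds (fold above 1.5, RPKM of at least 1), RPKM ratios and each library left out. Genes named are the 7 members, the list genes that pass or have the 3 smallest p in a comparison, and the 10 most alike. The members and lists were chosen with earlier results of these data known. A sex difference was the interaction term of a fit over 21 libraries, and pairs of genes were tested with 100000 permutations within groups (numpy 2.4.6). Scripts were tested on simulated data. Some genes of the pathway are not reported here. The replicates are rats, 1 library each, as named in the labels.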

Additional observations from a re-analysis of the deposited data

How the results depend on the processing

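The count of genes of the set that fell in aged females was 1. It was 3 with DESeq2, 3 with edgeR's exact test, 2 with voom, 2 without filterByExpr and 0 when rat numbers formed a replicate block. It ran from 0 to 4 when 1 library was left out (4 without aged control rat 2). The cause was not tested. In the sex difference of aging, DESeq2 passed 1 gene and edgeR 0. The count was 0 in each other comparison under every alternative run. Deviations of same-numbered rats had correlations from -0.189 to 0.394, with some under 0.1 in female aging and in both comparisons of RLX rats with 9-month controls and some below 0 in RLX in females, so the numbers are not taken as pairs. Under the block, the log2 fold change of Hmgcs1 in female aging was -0.77 (adjusted p = 0.527) and no other member's call changed. The calls of Msmo1, Npc2 and Acss2 were also lost, while Npc2 passed for RLX females against 9 months (log2 fold change 0.62, adjusted p = 0.0281). For male aging and RLX in males alone no block could be fitted, because their groups share no rat number.

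Of 1138 fold changes under an alternative, 1057 kept direction and side of the threshold and 51 changed direction. Ratios of RPKM are among them, have no adjusted p and were judged by direction alone. Genes to which DESeq2 gave no adjusted p were counted as not passing. None of the fold changes that changed direction had passed a test. In female aging these were Lss, 0.015 with voom and 0.078 with the length trend removed, and Srebf2, 0.085 with the length trend removed and 0.00048 with the replicate block. With the block, Srebf2 was 0.050 for RLX in females, Lss 0.040 for RLX females against 9 months, and Insig1 -0.0013 and Fdft1 -0.025 for RLX males against 9 months. With the length trend removed, Srebf2 was -0.20 for RLX in males and 0.069 for the sex difference in RLX, and Fdft1 -0.030 for RLX males against 9 months. With voom, Sqle was 0.20 for RLX in males and Idi1 -0.077 for RLX males against 9 months. By RPKM ratios, chosen after seeing the data, Lss was -0.032 in male aging and Idi1 -0.054 for RLX males against 9 months.

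With 1 library left out, the ranges that crossed 0 were as follows. In female aging they were -0.16 to 0.10 for Srebf2 and -0.11 to 0.088 for Lss. They were -0.22 to 0.037 for Srebf2 with RLX in females and -0.19 to 0.011 for Idi1 in RLX females against 9 months. In male aging they were -0.66 to 0.096 for Idi1 and -0.15 to 0.37 for Lss. With RLX in males they were -0.15 to 0.67 for Idi1, -0.63 to 0.26 for Insig1, -0.19 to 0.18 for Srebf2, -0.50 to 0.0065 for Lss and -0.34 to 0.15 for Sqle. In RLX males against 9 months they were -0.35 to 0.31 for Idi1, -0.40 to 0.14 for Lss and -0.042 to 0.18 for Fdft1. For the sex difference in aging the range was -0.40 to 0.13 for Lss. For that in RLX it was -0.00052 to 0.25 for Hmgcs1, -0.012 to 0.79 for Idi1, -0.26 to 0.11 for Srebf2 and -0.12 to 0.39 for Lss. Low counts of Sqle, Lss and Idi1 and 3 males per group limit what differences could be seen.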
